A study of Mus musculus with 12 samples.

Results

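Chemokines are small secreted proteins that draw leukocytes along a gradient, and each acts through G protein-coupled receptors on the cells it attracts. In the brain they are made by astrocytes, microglia and vessel cells, many of them after signals that reach the NF-kappaB transcription factors, while Cxcl12 and Cxcl14 are also made in tissue at rest. The 10 chemokine genes described here are Ccl2, Ccl3, Ccl4, Ccl6, Ccl7, Ccl9, Cxcl1, Cxcl12, Cxcl14 and Cxcl16, chosen by symbol, with every probe of the array that is annotated to them. They have 14 of the 24613 probes of the array, and 12 of these probes, for 9 of the 10 genes, passed the filter on detection (detection p under 0.05 on every array of at least 1 group), which 10935 probes and 8068 of 15967 named genes passed.

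The study compared cultures enriched in astrocytes from the cerebral cortex of SAMP8 mice, a senescence-accelerated strain, with those of SAMR1, its senescence-resistant control strain. The pups were 2 days old, and at culture day 21 the medium received 10% heat-inactivated serum for 48 h, taken either from rats kept on caloric restriction (CR) or from rats fed ad libitum (AL). This gives 4 groups of 3 samples, SAMP8-CR, SAMP8-AL, SAMR1-CR and SAMR1-AL, which the methods describe as independent experiments. All cultures thus received rat serum and all contained microglia beside astrocytes, as the culture description states. It gives the same ranges of cell types for both strains. In these RNA samples fewer cells of a type and less RNA per cell cannot be told apart.

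On the 12 arrays 41.2 to 46.7% of probes were detected above the negative control beads, and any pair of arrays correlated at 0.937 to 0.992 over the kept probes. With 3 arrays a group, their number sets the precision. The lowest intensity was between 40.1 and 42.9 on 4 arrays and between 7.01 and 8.19 on the other 8. These 4 arrays, replicates 2 and 3 of SAMP8-CR and of SAMP8-AL, are called the second array set here, and no label names such a split. Because the second set holds SAMP8 samples alone, the strain differences over both sera are also given from a fit blocked by array set, where they rest on replicate 1 of the SAMP8 groups against the 6 SAMR1 samples. Of the astrocyte markers Gfap, Aqp4, Slc1a3 and 9 others passed the filter, while S100b was detected on 2 arrays and Slc1a2 on 0. The T cell and neutrophil markers Cd3e, Cd3d, Cd3g, S100a9, Ltf and Ngp were detected on 0 arrays. S100a8, a calcium-binding protein of neutrophils and other myeloid cells, passed the filter. Its log2 intensity averaged 7.54 in SAMR1 and 6.62 in SAMP8, a mean below the lowest detected signal of every SAMP8 array (6.69 to 6.79). SAMP8-CR replicates 1 and 2 lay above that level. As the other SAMP8 arrays lay below it, the size of the strain difference is not given.

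Of the 10 genes 6 are on chromosome 11 near other members in the RefSeq annotation of GRCm38.p6: Ccl9, Ccl6, Ccl3 and Ccl4 follow each other as neighbouring protein-coding genes, and Ccl2 lies next to Ccl7. RefSeq promoters were at hand for 6 genes (Ccl3, Ccl6, Ccl9, Cxcl1, Cxcl12 and Cxcl14). The 250 bases before each start were searched on both strands for GGANTTTCC, a core of NF-kappaB sites, since NF-kappaB is a known inducer of chemokine genes. Cxcl1, which was higher in SAMP8, held it 1 time, 70 to 62 bases before the start. Ccl3, Ccl9 and Cxcl14, which were lower in SAMP8, did not hold these letters in this window. Neither did Cxcl12, whose brightest probe was also higher in SAMP8 without the block, nor Ccl6, which was not tested. Of all 32851 RefSeq promoters 1.07% held the motif. A match describes the sequence and is not a measured site. The windows of 1 gene that was higher and 2 that were lower are shown for comparison, each 5′ to 3′ on the strand of its gene with the motif in capitals. They are chr5:90890995-90891244 (plus strand) for Cxcl1, chr11:83649379-83649628 (minus strand) for Ccl3 and chr13:56296552-56296801 (minus strand) for Cxcl14, all in GRCm38.p6.
Cxcl1: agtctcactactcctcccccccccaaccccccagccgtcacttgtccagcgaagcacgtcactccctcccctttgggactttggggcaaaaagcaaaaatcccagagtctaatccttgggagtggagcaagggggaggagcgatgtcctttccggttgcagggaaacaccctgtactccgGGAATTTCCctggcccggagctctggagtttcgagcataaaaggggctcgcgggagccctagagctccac
Ccl3: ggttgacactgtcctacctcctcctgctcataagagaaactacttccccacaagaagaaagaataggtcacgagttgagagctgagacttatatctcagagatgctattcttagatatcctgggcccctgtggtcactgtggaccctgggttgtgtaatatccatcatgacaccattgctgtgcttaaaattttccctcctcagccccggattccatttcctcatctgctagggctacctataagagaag
Cxcl14: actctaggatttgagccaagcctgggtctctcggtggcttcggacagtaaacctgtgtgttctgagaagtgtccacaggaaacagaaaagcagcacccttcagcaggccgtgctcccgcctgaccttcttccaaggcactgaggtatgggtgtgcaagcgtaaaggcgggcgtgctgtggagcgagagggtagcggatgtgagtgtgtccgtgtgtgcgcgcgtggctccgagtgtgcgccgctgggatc

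SAMP8 cultures had lower signals of Ccl3, Ccl4, Ccl9 and Cxcl14 and higher signals of Ccl2, Cxcl1 and Cxcl12 than SAMR1 cultures over both sera, whereas the serum changed the signal of none of the 9 genes past the threshold. The falls were 1.61-fold for Ccl3, 2.41-fold for Ccl4, 2.36-fold for Ccl9 and 1.75-fold for Cxcl14. The rises were 1.52-fold for Cxcl1 and 1.63-fold for Cxcl12. In SAMR1-AL the Cxcl12 probe was near the detection limit, detected on 2 of 3 arrays. For Ccl2 no fold is given, since its probe passed the filter through SAMP8-CR alone, the group where it was highest. It was detected on 0 SAMR1-AL arrays. In the blocked fit Ccl2 (0.17 on the log2 scale, adjusted p = 0.526, limma) and Cxcl12 (0.28, adjusted p = 0.454) were no longer called, and the other 5 were. A second Cxcl12 probe, detected on all 12 arrays, was not called over both sera without the block (0.19, adjusted p = 0.351, limma). All values below are log2 intensities after Z normalization of each array, brought back to the mean level and spread of the arrays, and a difference of 1 is a 2-fold change. Tests are limma's moderated tests in 1 fit of the 4 groups, with Benjamini-Hochberg adjustment over all kept probes and a threshold of 0.05, and a gene is represented by its brightest kept probe.

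For the strain difference over both sera (P8-R1), 4 of the 9 genes were lower and 3 higher in SAMP8 at an adjusted p under 0.05. Among all 8068 genes 6.37% were lower and 8.68% higher. The 3 higher genes include Ccl2, which passed the filter through SAMP8-CR alone. The median difference was -0.23 over the 9 genes and 0.02 over all genes. With median centring of the arrays in place of Z normalization the median over all genes was 0.16, and the share of higher genes among those called was 72.6% against 57.7% with Z normalization. In CR serum (P8CR-R1CR) 1 of 9 was lower, against 1.3% of all genes, and 0 of 9 were higher, against 1.47%, with 4 higher and 4 lower at an unadjusted p under 0.05, against 8.84% and 6.68% of all genes. In AL serum (P8AL-R1AL) 4 of 9 genes were lower, against 3.81% of all genes, and 0 of 9 were higher, against 5.18%, with 2 higher and 4 lower at an unadjusted p under 0.05, against 13.7% and 10.1% of all genes. In the fit blocked by array set the count over both sera was 5, with Ccl3, Ccl4, Ccl9 and Cxcl14 lower and Cxcl1 higher. It was 2 in CR serum (Ccl4 and Ccl9) and 3 in AL serum (Ccl4, Ccl9 and Cxcl14), all lower. The share of all genes called was not computed for the blocked fit, so these counts have none beside them. The count in CR serum was 2 when samples were paired by replicate number, or without SAMR1-CR replicate 1, and that in AL serum was 2 without SAMP8-AL replicate 3 or without SAMR1-AL replicate 2. The sera differ in which genes pass, but the strain difference itself did not differ between the sera past the threshold for any of the 9 genes, as given with the serum results.

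**Figure D1:**
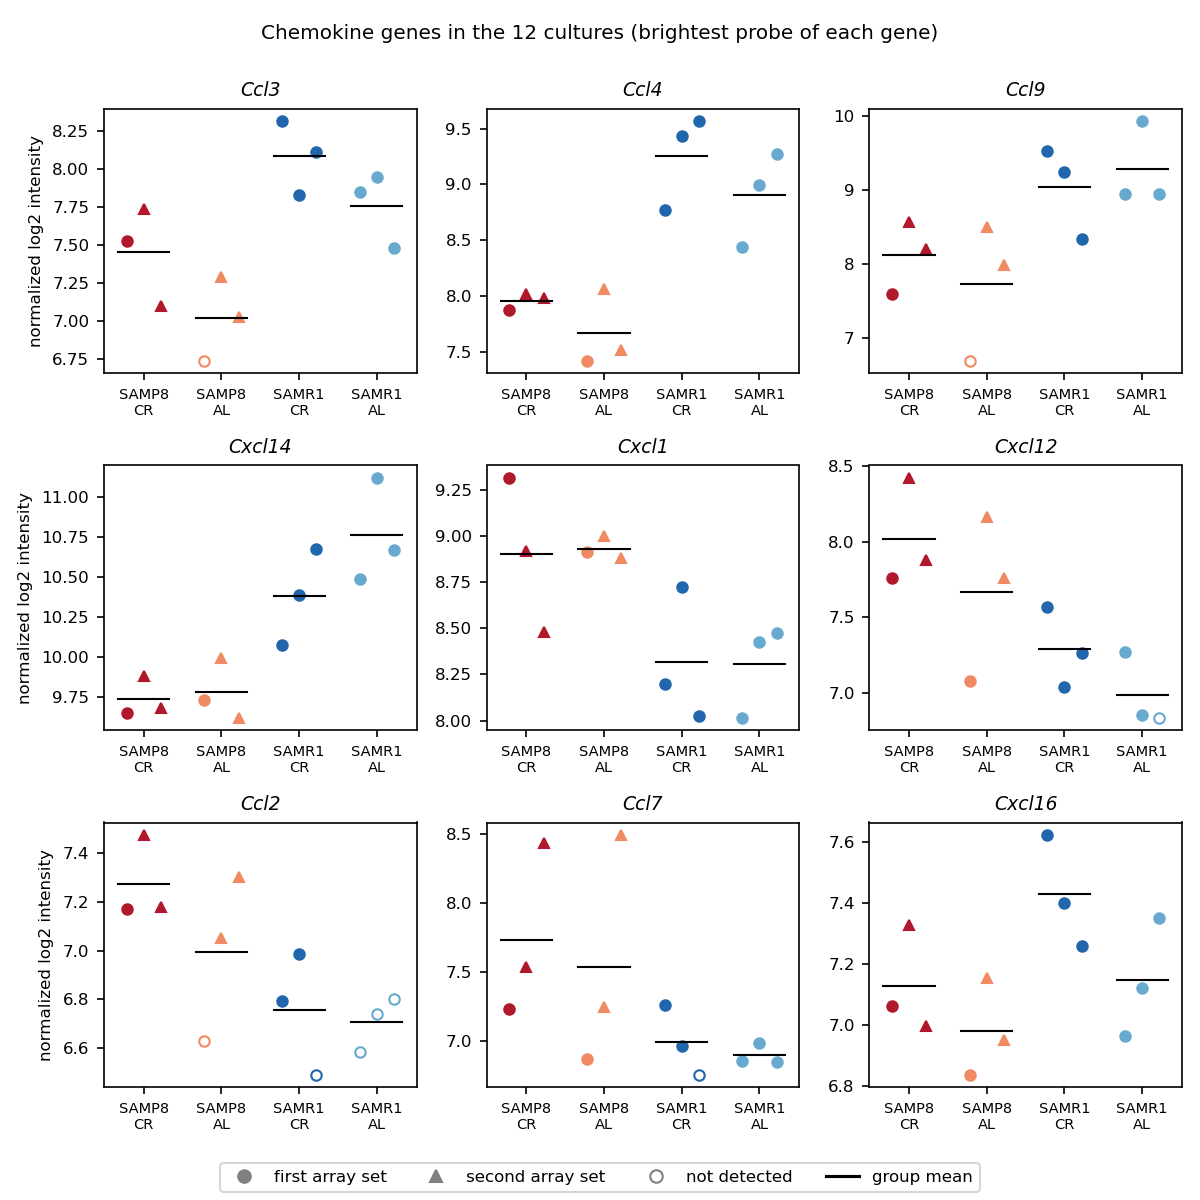
Normalized log2 intensity of the brightest probe of 9 chemokine genes in each of the 12 cultures, by group (3 cultures each). Lines are group means, triangles mark arrays of the second array set and open symbols arrays where the probe was not detected. For Ccl4 and Cxcl14 all 6 SAMP8 cultures lie below all 6 SAMR1 cultures.

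Ccl3 and Ccl4, also called MIP-1 alpha and MIP-1 beta, attract monocytes and T cells and are made in the brain mainly by microglia. Ccl4 was at 7.88, 8.02 and 7.98 in SAMP8-CR and at 7.42, 8.07 and 7.52 in SAMP8-AL, against 8.77, 9.43 and 9.57 in SAMR1-CR and 8.44, 9.00 and 9.28 in SAMR1-AL. The highest SAMP8 culture (8.07) lay below the lowest SAMR1 culture (8.44), so that the strains did not overlap in either serum. Over both sera Ccl4 averaged 7.82 ± 0.28 in SAMP8 and 9.08 ± 0.43 in SAMR1 (SD, n = 6 each). The difference was -1.27 ± 0.17 (SE, adjusted p = 0.00025, limma). It was -1.30 in CR serum (adjusted p = 0.00841) and -1.23 in AL serum (adjusted p = 0.00795), the sole member that passed the threshold in both. Blocked by array set it was -1.43 over both sera (adjusted p = 0.00242).

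Ccl3 was at 7.53, 7.74 and 7.10 in SAMP8-CR and at 7.29 and 7.03 in SAMP8-AL with 6.74 in replicate 1, where it was not detected, against 8.32, 7.83 and 8.12 in SAMR1-CR and 7.85, 7.95 and 7.48 in SAMR1-AL. Across sera 2 SAMP8-CR cultures lay above 1 SAMR1-AL culture, and within each serum the strains did not overlap. The difference over both sera was -0.69 ± 0.14 (SE, adjusted p = 0.00476, limma), and blocked by array set it was -0.79 (adjusted p = 0.0251). In CR serum it was -0.63 (adjusted p = 0.112) and in AL serum -0.74 (adjusted p = 0.0323). With median centring the difference in AL serum was -0.67 and was not called (adjusted p = 0.148). The call in AL serum was lost when blocked by array set (-0.84, adjusted p = 0.0601), without SAMP8-AL replicate 1 (adjusted p = 0.121) or replicate 3 (0.0883) and without SAMR1-AL replicate 1 (0.069) or replicate 2 (0.123).

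Ccl9, or MIP-1 gamma, and Ccl6 are ligands of Ccr1 in mice and are products of macrophage lineage cells. Ccl9 was at 7.59, 8.56 and 8.20 in SAMP8-CR and at 6.69, 8.49 and 7.98 in SAMP8-AL, the lowest of these being below detection, against 9.53, 9.24 and 8.33 in SAMR1-CR and 8.95, 9.94 and 8.94 in SAMR1-AL. It had the widest spread within the SAMP8-AL group among the 9 genes (SD 0.93). The strains overlapped in CR serum, where SAMR1-CR replicate 3 was below the highest SAMP8-CR culture, and did not overlap in AL serum. The difference over both sera was -1.24 ± 0.30 (SE, adjusted p = 0.0138, limma). Blocked by array set it was -2.02 (adjusted p = 0.00154), that is, the SAMP8 cultures of the first array set had the lowest Ccl9 of their groups.

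In CR serum the Ccl9 difference was -0.92 (adjusted p = 0.315, limma), or -1.70 when blocked by array set (adjusted p = 0.0317), and in AL serum it was -1.56 (adjusted p = 0.0364). The call in AL serum was lost without SAMP8-AL replicate 1 (-1.04, adjusted p = 0.132), SAMP8-AL replicate 3 (-1.69, 0.0714), SAMP8-CR replicate 3 (-1.56, 0.052) or SAMR1-AL replicate 2 (-1.23, 0.154). Median centring (-1.37, adjusted p = 0.0976) and moderation without a trend (-1.56, 0.0563) lost it too. Ccl6 did not pass the filter and was not tested. It was detected on 3 of 12 arrays, at 6.89 in SAMP8-CR replicate 3, at 6.90 in SAMR1-CR replicate 1 and at 7.31 in SAMR1-AL replicate 2. Its other 9 values, all below detection, lay between 6.48 and 6.81.

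Cxcl14 is a chemokine with broad expression in tissue at rest. It was at 9.65, 9.88 and 9.68 in SAMP8-CR and at 9.73, 9.99 and 9.62 in SAMP8-AL, against 10.07, 10.38 and 10.67 in SAMR1-CR and 10.48, 11.12 and 10.67 in SAMR1-AL. All 6 SAMP8 cultures lay below all 6 SAMR1 cultures. Ccl4 and Cxcl14 were the 2 of 9 genes whose strains did not overlap in this way, against 3.27% of all genes with SAMP8 lower, and 0 of 9 had all SAMP8 cultures higher, against 3.94% of all genes. Cxcl14 averaged 9.76 ± 0.15 in SAMP8 and 10.57 ± 0.35 in SAMR1 (SD, n = 6 each), a difference of -0.81 ± 0.14 (SE, adjusted p = 0.00127, limma). In CR serum the difference was -0.64 (adjusted p = 0.0981) and in AL serum -0.98 (adjusted p = 0.00777). The difference in CR serum passed the threshold with samples paired by replicate number (adjusted p = 0.0443) and without SAMR1-CR replicate 1 (-0.79, adjusted p = 0.0449). Blocked by array set it was -0.88 over both sera (adjusted p = 0.0137). Under median centring, which moved the median of all genes upward, it was -0.54 and was not called (adjusted p = 0.113). The difference in AL serum was then -0.79 and was not called either (adjusted p = 0.176).

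Cxcl1, known as KC, attracts neutrophils through Cxcr2. It was at 9.32, 8.92 and 8.48 in SAMP8-CR and at 8.91, 9.00 and 8.88 in SAMP8-AL, against 8.20, 8.72 and 8.03 in SAMR1-CR and 8.01, 8.42 and 8.47 in SAMR1-AL. The strains overlapped through 1 culture of each in CR serum and did not overlap in AL serum. The difference over both sera was 0.61 ± 0.16 (SE, adjusted p = 0.0169, limma), and neither serum alone passed the threshold (0.59, adjusted p = 0.193 in CR serum and 0.63, adjusted p = 0.0868 in AL serum). It was 0.80 when blocked by array set (adjusted p = 0.0328).

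Cxcl12, or SDF-1, is the ligand of Cxcr4 and holds cells that carry this receptor in place. It was at 7.76, 8.43 and 7.88 in SAMP8-CR and at 7.08, 8.17 and 7.76 in SAMP8-AL, against 7.57, 7.04 and 7.27 in SAMR1-CR and 7.27, 6.85 and 6.83 in SAMR1-AL. The probe was not detected in SAMR1-AL replicate 3 (6.83). Of the SAMP8 cultures the lowest was SAMP8-AL replicate 1, which lay among the SAMR1 values. The difference over both sera was 0.71 ± 0.18 (SE, adjusted p = 0.0153, limma), and it was 0.73 in CR serum (adjusted p = 0.152) and 0.68 in AL serum (adjusted p = 0.0993). Blocked by array set it was 0.28 over both sera and was no longer called (adjusted p = 0.454). In AL serum it was 0.98 without SAMP8-AL replicate 1 and then passed the threshold (adjusted p = 0.0311).

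Ccl2 (MCP-1) and Ccl7 (MCP-3), neighbours on chromosome 11, both attract monocytes through Ccr2. Ccl2 was at 7.17, 7.47 and 7.18 in SAMP8-CR and at 6.63, 7.05 and 7.30 in SAMP8-AL, against 6.79, 6.98 and 6.49 in SAMR1-CR and 6.59, 6.74 and 6.80 in SAMR1-AL. Its probe was near the detection limit, detected on 3, 2, 2 and 0 arrays of these groups. It passed the filter through SAMP8-CR alone, the group where it was highest, so that the filter itself favoured a rise. The difference over both sera was 0.40 ± 0.11 (SE, adjusted p = 0.0259, limma) and was 0.17 when blocked by array set (adjusted p = 0.526). The call was also lost without SAMP8-AL replicate 2 (0.39, adjusted p = 0.0583), SAMP8-AL replicate 3 (0.32, 0.0643), SAMP8-CR replicate 2 (0.35, 0.0641) or SAMR1-CR replicate 3 (0.33, 0.0546). In CR serum the difference was 0.52 (adjusted p = 0.106). In AL serum, where Ccl2 was detected on no SAMR1-AL array and not in SAMP8-AL replicate 1, the strains overlapped and the difference did not pass (95% interval -0.05 to 0.62, adjusted p = 0.28).

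Ccl7 was at 7.23, 7.54 and 8.44 in SAMP8-CR and at 6.87, 7.25 and 8.50 in SAMP8-AL, against 7.26, 6.97 and 6.76 in SAMR1-CR and 6.86, 6.99 and 6.85 in SAMR1-AL. It was not detected in SAMR1-CR replicate 3 (6.76). Replicate 3 of both SAMP8 groups stood above every other culture, the next of which was at 7.54, and both are on arrays of the second set. Ccl7 did not pass the threshold over both sera (0.69 ± 0.24 SE, adjusted p = 0.0686, limma, higher in SAMP8). It passed without SAMP8-AL replicate 1 (0.86, adjusted p = 0.0292) or without SAMP8-CR replicate 1 (0.82, adjusted p = 0.0496). Blocked by array set the difference was 0.11 (adjusted p = 0.871). The part of the array set in the values of Cxcl12, Ccl2 and Ccl7 was not tested apart from these fits.

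Cxcl16 is made as a membrane protein, is released by proteases of the ADAM family and binds Cxcr6. It was at 7.06, 7.33 and 7.00 in SAMP8-CR and at 6.84, 7.16 and 6.95 in SAMP8-AL, against 7.63, 7.40 and 7.26 in SAMR1-CR and 6.96, 7.12 and 7.35 in SAMR1-AL. The strains overlapped in both sera. The difference over both sera was -0.23 (95% interval -0.44 to -0.03, adjusted p = 0.116, limma) and did not pass the threshold, while with quantile normalization it was -0.30 and did (adjusted p = 0.0452). Blocked by array set it was -0.34 (adjusted p = 0.155).

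**Figure D2:**
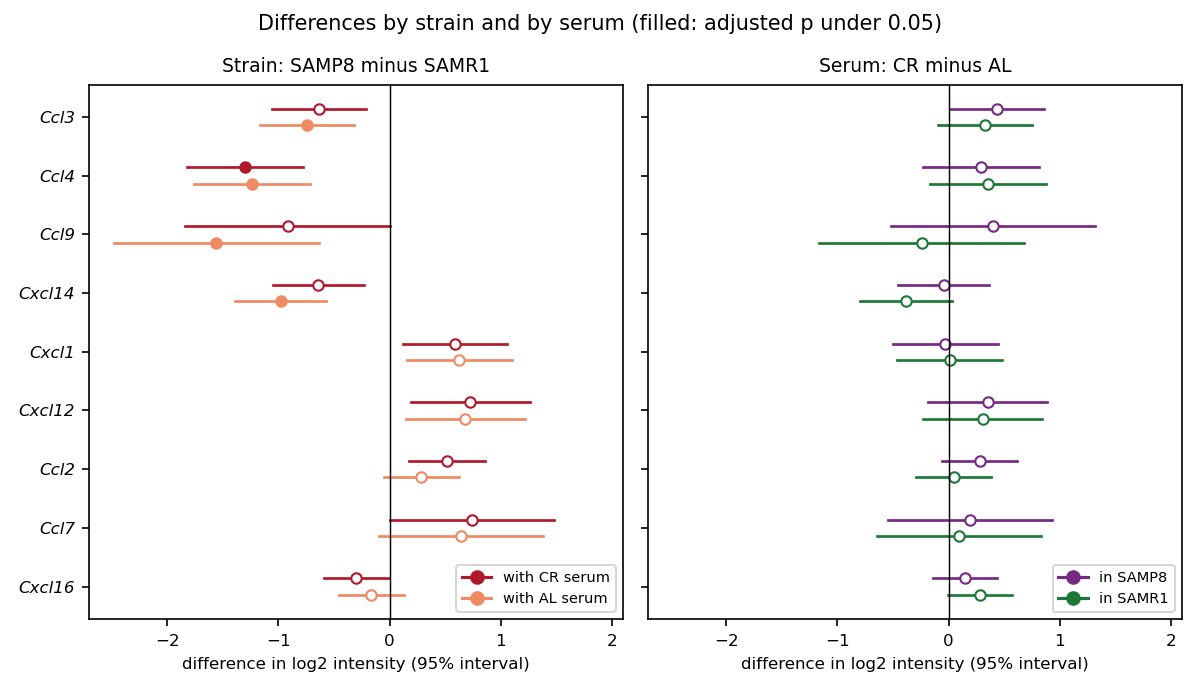
Differences in log2 intensity with their 95% intervals from limma, for strain (left, SAMP8 minus SAMR1 in CR and in AL serum) and for serum (right, CR minus AL in SAMP8 and in SAMR1). Filled points have an adjusted p under 0.05, which Ccl4 reached in both sera, Ccl3, Ccl9 and Cxcl14 in AL serum, and no gene for serum.

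**Figure D3:**
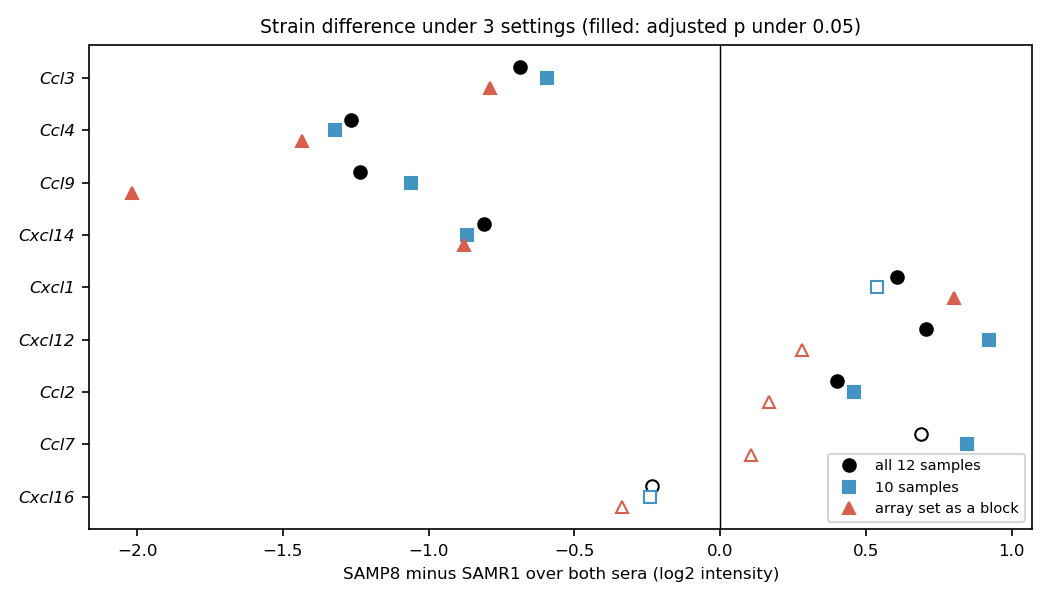
Strain difference over both sera (SAMP8 minus SAMR1, log2 intensity) of each gene with all 12 samples, with the 10 samples behind the study's own table (without replicate 1 of SAMP8-AL and of SAMR1-AL), and in the fit blocked by array set. Filled symbols have an adjusted p under 0.05. Ccl3, Ccl4, Ccl9 and Cxcl14 are filled in all 3, while Ccl2 and Cxcl12 are open with the block.

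CR serum against AL serum changed 0 of the 9 genes in SAMP8 (P8CR-P8AL) and 0 of 9 in SAMR1 (R1CR-R1AL) at an adjusted p under 0.05 (limma), and 0% of all genes passed in either comparison. The serum effect is the treatment that the study set out to test in both strains. At an unadjusted p under 0.05 there was 1 of the 9 genes in SAMP8, against 4.92% of all genes. It was Ccl3, which averaged 7.46 ± 0.33 in SAMP8-CR and 7.02 ± 0.28 in SAMP8-AL (SD, n = 3 each), a difference of 0.43 (95% interval 0.01 to 0.86, adjusted p = 0.818, limma). The study's Z ratio of at least 1.5, joined here with limma's unadjusted p under 0.05, takes this difference with a Z ratio of 3.05. In SAMR1 there was none of the 9 at an unadjusted p under 0.05, against 2.93% of all genes, and the smallest p was that of Cxcl16, 0.0565 before adjustment in limma.

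Over both strains the CR minus AL difference passed the threshold for 0 of 9 genes and 0% of all genes, with 2 of the 9 at an unadjusted p under 0.05 (limma), against 3.3% of all genes. These were Ccl3, at 0.38 (95% interval 0.08 to 0.68), and Cxcl16, at 0.22 (95% interval 0.01 to 0.42), each with an adjusted p of 0.97, and the Z ratio joined with that p takes both. Ccl4 was 0.32 higher with CR serum (95% interval -0.05 to 0.69) and Cxcl14 was at -0.21 (95% interval -0.50 to 0.08). The interval for Cxcl1 was -0.34 to 0.32 around -0.01. The median over the 9 genes was 0.16, and over all genes it was 0.01.

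The strain difference did not depend on the serum past the threshold for any of the 9 genes (strain by serum interaction, 0 of 9, against 0% of all genes, limma), and 0 of 9 had an unadjusted p under 0.05, against 3.58% of all genes. The interaction of Ccl9 was 0.64 (95% interval -0.66 to 1.94), that of Cxcl14 was 0.34 (95% interval -0.24 to 0.92) and that of Ccl4 was -0.07 (95% interval -0.80 to 0.67). The interval of Ccl9 includes values as large as its strain difference.

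For 3 genes other probes were on the array. The other Ccl4 probe was at 6.71, 6.90 and 6.53 in SAMP8-CR and at 6.23, 6.65 and 6.60 in SAMP8-AL, against 7.37, 6.98 and 6.98 in SAMR1-CR and 6.80, 6.80 and 6.79 in SAMR1-AL. It was detected on 1 of the 6 SAMP8 arrays and on 4 of the 6 SAMR1 arrays, so that most of its SAMP8 values lay below detection and no fold is given.

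The other Cxcl14 probe, detected on all 12 arrays, was at 10.12, 9.88 and 9.25 in SAMP8-CR and at 9.44, 9.82 and 9.59 in SAMP8-AL, against 10.59, 10.04 and 10.24 in SAMR1-CR and 10.30, 10.76 and 9.78 in SAMR1-AL. Its strains overlapped, and its difference was -0.60 ± 0.18 (SE, adjusted p = 0.0358, limma), so that both Cxcl14 probes were lower in SAMP8. The second Cxcl12 probe, also detected on all 12 arrays, ranged between 6.94 and 7.72 in SAMP8 and between 6.88 and 7.38 in SAMR1. Its difference was 0.19 (95% interval -0.09 to 0.47, adjusted p = 0.351, limma), whereas the brightest Cxcl12 probe was called. The brightest probe is annotated to a different RefSeq transcript from the other Cxcl12 probes. The third Cxcl12 probe was detected on 0 arrays and was not tested. Over the 12 cultures the other probe followed the brightest with Pearson's r of 0.66 for Ccl4, 0.66 for Cxcl14 and 0.74 for Cxcl12, as a description across samples that share strain and array set.

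**Figure D4:**
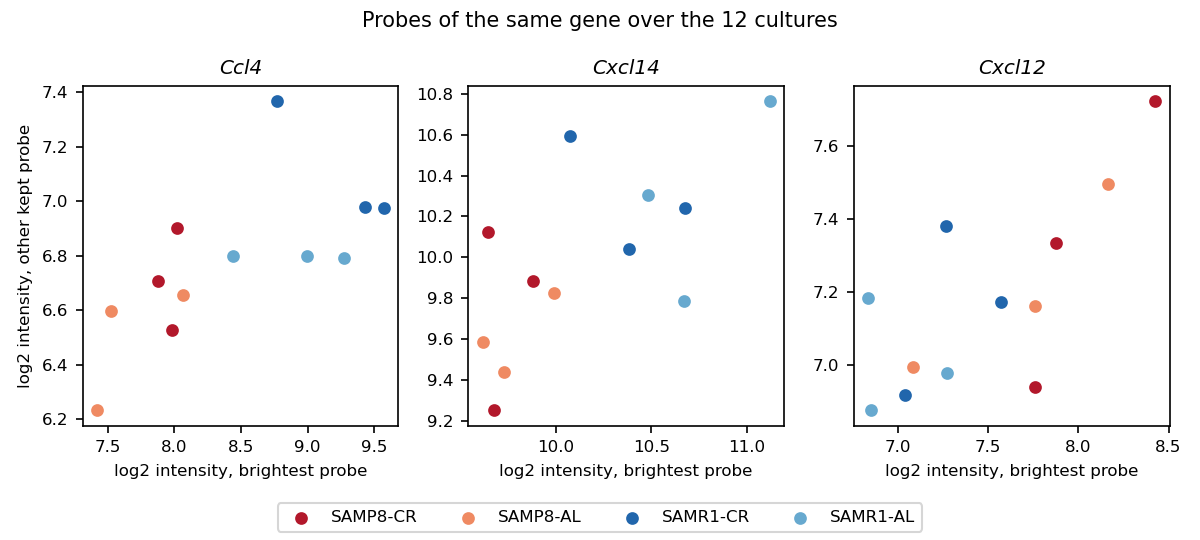
Log2 intensity of the brightest probe (x axis) and of the other kept probe (y axis) of Ccl4, Cxcl14 and Cxcl12 in the 12 cultures, coloured by group. SAMP8 cultures lie toward the left for Ccl4 and Cxcl14, and for Cxcl12 the groups mix along the y axis.

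Other chemokines, receptors and pathway genes came from lists chosen with earlier results of these data known. Counts and values are those without a block unless the block is named. Over both sera 6.37% of all 8068 genes were lower and 8.68% higher, and such shares were not computed with the block. Of 25 other chemokine genes on the array 7 passed the filter, and 1 was lower and 0 higher in SAMP8 over both sera. It was Pf4, or Cxcl4, a chemokine of platelets and macrophages, which averaged 7.55 in SAMP8 and 8.98 in SAMR1 (-1.43 ± 0.19 SE, adjusted p = 0.000188, limma). The other 6 lay closer to 0, the largest of them being Ccl5 at -0.22 (adjusted p = 0.316). Pf4, blocked by array set, was at -1.66 (adjusted p = 0.00131) and was again the 1 gene called. The neutrophil and T cell attractants Cxcl2, Cxcl9, Cxcl10 and Cxcl11 were detected on 0 arrays.

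Of 22 receptor genes on the array 5 passed the filter and 2 were lower in SAMP8, 0 higher. Among the 5 was Cx3cr1, which the microglia list below also holds. Cxcr4, the receptor of Cxcl12, averaged 9.56 in SAMP8 and 10.26 in SAMR1 (-0.69 ± 0.18 SE, adjusted p = 0.0179, limma), opposite in sign to the brightest Cxcl12 probe. The atypical receptor Ccrl2 was at -0.32 (adjusted p = 0.00653). With the block Cxcr4 was at -1.15 (adjusted p = 0.00253) and Ccrl2 was no longer called (-0.28, adjusted p = 0.114). Ccr1, the receptor of Ccl3, Ccl6 and Ccl9, was at -0.11 and did not pass (adjusted p = 0.186). Ccr2, the receptor of Ccl2 and Ccl7, was detected on 0 arrays, as was Cxcr2, the receptor of Cxcl1.

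Of 10 kept genes of receptor signalling 3 were lower and 0 higher. These were Rgs1, which ends G protein signals (-1.76 ± 0.12 SE, adjusted p = 3.8e-07), Vav1, a signalling protein of blood cells (-0.76 ± 0.16, adjusted p = 0.00573), and Rac2, a GTPase of blood cells (-0.41 ± 0.11, adjusted p = 0.0218), all by limma. Of 21 kept inducers of chemokine genes 2 were lower and 2 higher, with a median of 0.01. Cd14, a coreceptor for bacterial lipopolysaccharide, averaged 8.74 in SAMP8 and 10.90 in SAMR1 (-2.16 ± 0.17 SE, adjusted p = 1.76e-06), and Socs3, an inhibitor of cytokine signals, was at -0.75 (adjusted p = 0.00527). Nfkbiz, a nuclear IkappaB protein, was higher by 0.66 (adjusted p = 0.000625) and Ier3, an early response gene, by 0.45 (adjusted p = 0.0123). The cytokine genes Tnf, Il1a and Il1b were detected on 0 arrays. Of 5 kept proteases that trim or release chemokines 1 was lower, Mmp12, the macrophage elastase (-1.53 ± 0.25 SE, adjusted p = 0.00111), and 0 were higher. In the fit with the block the signalling genes called were 5 lower and 0 higher, the inducers 2 lower and 1 higher, and the proteases 1 lower and 0 higher, and of the genes named here Ier3 alone lost its call (adjusted p = 0.113).

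Microglia are the resident macrophages of the brain, and their markers moved with strain in the same cultures. Of 14 kept microglia and macrophage markers 10 were lower and 0 higher in SAMP8 over both sera (limma), with a median of -0.93. Of all genes 6.37% were lower and 8.68% higher. Among them were Fcgr3, an Fc receptor (-2.01, adjusted p = 5.31e-05), Trem2 (-1.24, adjusted p = 0.000466) and C1qa (-1.09, adjusted p = 0.00371), while Aif1 (0.01, adjusted p = 0.985) and Cx3cr1 (-0.39, adjusted p = 0.265) did not pass. The marker Itgam was detected on 0 arrays. The summed intensity of the 14 markers ranged between 12945 and 18536 in SAMP8-CR and between 11088 and 18589 in SAMP8-AL, against 22516 to 32260 in SAMR1-CR and 17677 to 40618 in SAMR1-AL. The lowest SAMR1 culture lay within the SAMP8 range. With the array set block 8 of the 14 were lower and 0 higher, with a median of -1.37. Of 12 kept astrocyte markers 4 were higher and 0 lower in SAMP8, with Gfap at -0.22 (adjusted p = 0.656), and 2 were higher when blocked by array set. The astrocyte markers summed to 43037 to 58178 in SAMP8-CR and 46874 to 72254 in SAMP8-AL, against 38614 to 63534 in SAMR1-CR and 46905 to 57469 in SAMR1-AL. Of 13 kept fibroblast and meningeal markers 2 were higher, Col1a2 (0.72) and Igf2 (2.01), whereas blocked by array set neither was called (0.16 for each) and 4 others, Col1a1, Col3a1, Thbs2 and Col6a1, were lower.

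Some markers of further cell types were also called over both sera, where 6.37% of all genes were lower and 8.68% higher. Of 4 kept endothelial markers 1 was higher in SAMP8, Slco1a4, an organic anion transporter of brain vessels (1.88, adjusted p = 1.04e-05, limma), which was at 2.27 when blocked by array set (adjusted p = 2.58e-05). The 4 summed to 1026 to 1068 in SAMP8-CR and 871.0 to 1198 in SAMP8-AL, against 593 to 700.4 in SAMR1-CR and 522 to 600.2 in SAMR1-AL. These sums did not overlap between strains, but Slco1a4 alone was called (8.99 in SAMP8 and 7.11 in SAMR1). Cdh5, Flt1 and Emcn were not (adjusted p = 0.396, 0.53 and 0.944, limma). Blocked by array set these 3 were at -0.37, -0.07 and -0.01. Pecam1, Kdr and Tek were detected on 0 arrays. Of 5 kept markers of the oligodendrocyte lineage 2 were higher, Olig2 (0.57, adjusted p = 0.00069) and Cnp (0.48, adjusted p = 0.0345), and their sums overlapped. Of 4 kept markers of pericytes and smooth muscle Pdgfrb was higher (0.48, adjusted p = 0.017), and of 3 kept neuronal markers Syt1 was higher (0.33, adjusted p = 0.01). Olig2 was still called when blocked by array set (adjusted p = 0.00256) and Cnp, Pdgfrb and Syt1 were not (adjusted p = 0.101, 0.366 and 0.134). The part of these cell types in the chemokine differences was not tested.

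**Figure D5:**
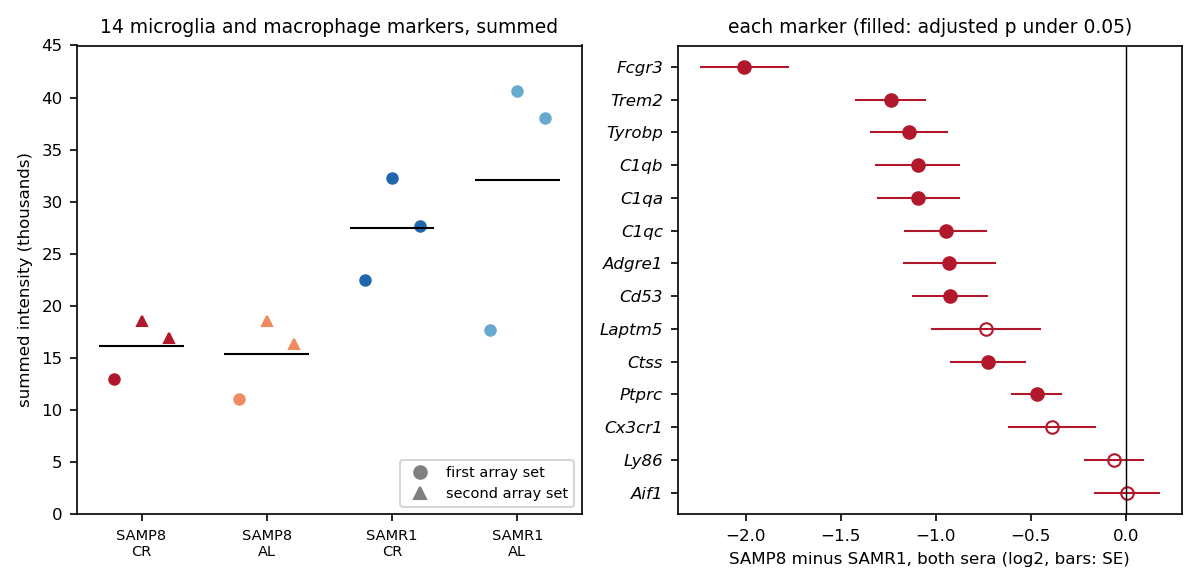
Left, summed intensity of 14 microglia and macrophage markers in each culture by group, with the group mean as a line and arrays of the second set as triangles. Right, the strain difference of each marker over both sera (SAMP8 minus SAMR1, log2, bars are SE), filled where the adjusted p was under 0.05, which 10 of 14 were.

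Among the 8059 other kept genes, those whose values were most like Ccl4 over the 12 cultures were Tal1 (Pearson's r 0.98), Cd86 (0.97) and Samsn1 (0.97). Those most like Cxcl14 were Adam15 (0.96), Naip2 (0.95) and Cytip (0.93), and those most like Cxcl1 were Kirrel3 (0.95), Trib2 (0.93) and Lmcd1 (0.91). For Cxcl16 they were Fabp3 (0.90), Fyb (0.89) and Dram1 (0.88). These likenesses describe 12 samples that share strain, serum and array set.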

How the data were processed

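Total RNA of the 12 cultures was hybridised to Illumina MouseRef-8 arrays. The authors deposited for each sample the mean bead intensity of every probe, linear and without background correction, and a detection p-value per probe. A second deposited table holds a score, the log10 intensity centred and scaled per array, which the intensities give to within 5e-10. No column of values was left without a sample.

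Here log2 intensities were Z-normalized per array, scaled to the arrays' mean SD (1.42) and shifted to their mean (7.28). Computations used R 4.3.3 with limma 3.58.1 (lmFit, eBayes with a trend), Python 3.11.15 and matplotlib 3.10.9. The detection filter asked for a p under 0.05 on every array of at least 1 group. The annotation gives 1 gene for 20984 probes, several for 1 probe and none for 3628, and RefSeq GRCm38.p6 held 20968 of the symbols, changing 0. All 12 samples entered 1 fit, as the methods state 3 independent experiments. The tests set each difference against the spread between samples of a group, moderated over all kept probes. Every member was named with every probe, and of each pathway list up to 4 kept genes with the smallest p over both sera. The members, gene lists, motif and settings were chosen with earlier results of these data known. Other scalings, filters, sample sets and blocks were tried as alternatives. Same-numbered samples deviated together in P8CR-R1CR (r 0.191 to 0.366) and in P8CR-P8AL (r 0.116 to 0.439), less evenly in R1CR-R1AL (0.0925 to 0.572), and not in P8AL-R1AL (-0.106 to 0.018). The numbers pair samples in an alternative fit alone. List counts blocked by array set were added after seeing the data. The fits were tested on simulated data.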

Additional observations from a re-analysis of the deposited data

How the results depend on the processing

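Of 1080 values of the 9 genes under 24 alternatives, 996 kept their direction and side of the threshold, 34 lost their call, 24 gained one and 26 changed sign. These include serum differences, which had no call to lose, and a Z ratio setting that reuses the main differences and cannot change sign. Pairing by replicate number, moderation without a trend and leaving out a sample outside a comparison also return its main difference. Such values could not change sign, so the counts kept overstate how far the alternatives tested them. In the strain comparisons 192 of 216 values were kept in P8AL-R1AL, 204 of 216 in P8CR-R1CR and 193 of 216 over both sera. In the strain comparisons the sign changed for Ccl2 (-0.080) and Ccl7 (-0.024) in P8AL-R1AL on the first array set alone. The other 24 sign changes were serum differences, none of which was called.

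With the replicate block, which pairs samples of the same number, P8CR-R1CR called 2 genes, Ccl4 and Cxcl14 (adjusted p = 0.0443, limma), instead of 1, and over both sera Ccl7 was also called (adjusted p = 0.0369). It changed no other call in the strain or serum comparisons. The array set as a block called 2 genes in P8CR-R1CR, Ccl4 and Ccl9, and lost Ccl3 in P8AL-R1AL (adjusted p = 0.0601) and Ccl2 and Cxcl12 over both sera. The first array set alone, with 1 SAMP8 sample per serum that is assumed to vary like the other groups, called 1 gene in P8AL-R1AL (Ccl9), 0 in P8CR-R1CR and 2 over both sera (Ccl4 and Ccl9). There the adjusted p over both sera was 0.0506 for Ccl3, 0.0698 for Cxcl14 and 0.0828 for Cxcl1. Quantile normalization called 2 in P8CR-R1CR, where it called 102 of all 8068 genes higher and 126 lower. Median centring called 1 in P8AL-R1AL, beside 130 of all genes higher and 98 lower. In P8CR-R1CR it called 2, beside 112 higher and 50 lower. Shares of all genes were not computed for the other alternatives given here. The study's Z ratio of at least 1.5, joined with limma's unadjusted p under 0.05, took 7 in P8CR-R1CR, 1 in P8CR-P8AL and 2 for CR-AL over both strains. In P8AL-R1AL it took Cxcl1 and Cxcl12 beside the genes called there, and over both sera it took Ccl7 as well. This rule has no adjustment and is looser than the main threshold, and part of the gained calls counted above come from it alone. Without 1 sample at a time, the count was 2 to 4 in P8AL-R1AL and 1 to 2 in P8CR-R1CR. With the 10 samples behind the study's table Ccl3 (adjusted p = 0.181) and Ccl9 (0.109) were not called in P8AL-R1AL and Cxcl12 was (0.0223), while over both sera Cxcl1 was not called (0.0557) and Ccl7 was (0.0418). The mean of the kept probes left Cxcl12 at 0.45 over both sera (adjusted p = 0.0518). The cause of these changes was not tested.

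Among serum differences, R1CR-R1AL changed sign with the 10 samples for Ccl2 (-0.014) and Cxcl1 (-0.13), and for Cxcl1 with quantile normalization (-0.040) and neqc (-0.053). P8CR-P8AL changed sign with the 10 samples for Ccl7 (-0.14) and Ccl9 (-0.12), on the first array set for Cxcl1 (0.40), with median centring for Cxcl1 (0.20) and Cxcl14 (0.23), and with the mean of probes for Cxcl14 (0.047). Without 1 sample at a time, R1CR-R1AL ranged from -0.067 to 0.18 for Ccl2, -0.19 to 0.15 for Cxcl1, -0.49 to 0.11 for Ccl9 and -0.036 to 0.22 for Ccl7. P8CR-P8AL ranged from -0.15 to 0.67 for Ccl7, -0.12 to 0.78 for Ccl9, -0.23 to 0.18 for Cxcl1 and -0.13 to 0.062 for Cxcl14.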
